A study of Mus musculus with 36 samples.

Results

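Whether the transcriptional response of dorsal root ganglion (DRG) to nerve injury differed between wild-type and knockout mice was measured in 18 of the 36 RNA sequencing libraries of the series, namely every library taken from DRG. The DRG holds the cell bodies of sensory neurons together with their satellite glia, Schwann cells and resident macrophages. The libraries formed 4 groups, with 5 from naive wild-type mice, 4 from wild-type mice after spared nerve injury (SNI), 5 from naive knockout mice and 4 from knockout mice after SNI. The series title names female mice, and the labels give the genotype as wild type or knockout with no treatment other than the injury. The sources used here give no strain, age, type of null allele or time after injury. Libraries carry the letter and number of their titles. Naive wild-type libraries were A1, A3, B1, B3 and C1, injured wild-type libraries E1, E3, F1 and F3, naive knockout libraries A2, A4, B2, B4 and C2, and injured knockout libraries E2, E4, F2 and F4. For A2 and A4 the title reads wild type and the genotype field knockout, and they were placed by the field.

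In SNI the tibial and common peroneal branches of the sciatic nerve are cut while the sural branch is left intact, so that cut and uncut neurons lie side by side in the ganglion. Cut neurons switch on a set of growth and stress genes that includes the neuropeptide galanin, which intact adult sensory neurons hold at low levels.

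A gene with an interaction is one whose log2 fold change from naive to SNI differed between knockout and wild type. The difference equals the genotype difference after injury minus the genotype difference in naive ganglia, so it can sit at either end. Values after ± are standard errors for log2 quantities and standard deviations for CPM, counts scaled to the library's size. Calls rest on edgeR, at a p under 0.05 after Benjamini-Hochberg adjustment across the genes tested. Nothing in the labels says that the libraries of a group are different animals, so p-values measure the spread between these libraries, which may be technical in part.

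Depth ran from 21.44 to 27.27 M estimated reads per DRG library. The summed level of a gene list in a library, its score, is its members' mean log2(CPM + 1). General neuronal genes scored 8.73 to 9.41 in all 18 libraries, Schwann cell genes 7.62 to 8.15 and satellite glia genes 7.3 to 7.75. By group, general neuronal scores were 8.73 to 9.21 in naive wild type and 9.23 to 9.41 in naive knockout, without overlap. After injury they were 8.74 to 9.26 in wild type and 9.03 to 9.25 in knockout. Of these 12 genes, 6 were called higher in naive knockout, where 12.8% of all genes were. Only 3 of 8 genes of spinal cord and oligodendrocytes had enough counts to be tested. Blood genes such as hemoglobins did not hold level between groups, with scores of 5.03 to 7.22 in naive wild type, 4.21 to 6.15 in injured wild type, 3.1 to 4.65 in naive knockout and 3.94 to 5.13 in injured knockout.

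Injury changed many genes in each genotype, and few of them differed in response between the genotypes by this test. In the same fit, 4864 of 19496 genes (24.9%) were called for injury in wild type and 5549 (28.5%) in knockout. The interaction was called for 5 genes, which is 0.0256% of those tested, with 4 higher and 1 lower in knockout. At an unadjusted p under 0.05 there were 1160 genes (5.95%), 796 higher and 364 lower in knockout. DESeq2 called 24 genes (0.123%), 20 higher and 4 lower, and all 5 genes of the edgeR test were among them. In dorsal spinal cord the same contrast called 0 of 18843 genes (0%) with edgeR, with 1150 at an unadjusted p under 0.05.

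**Figure D1:**
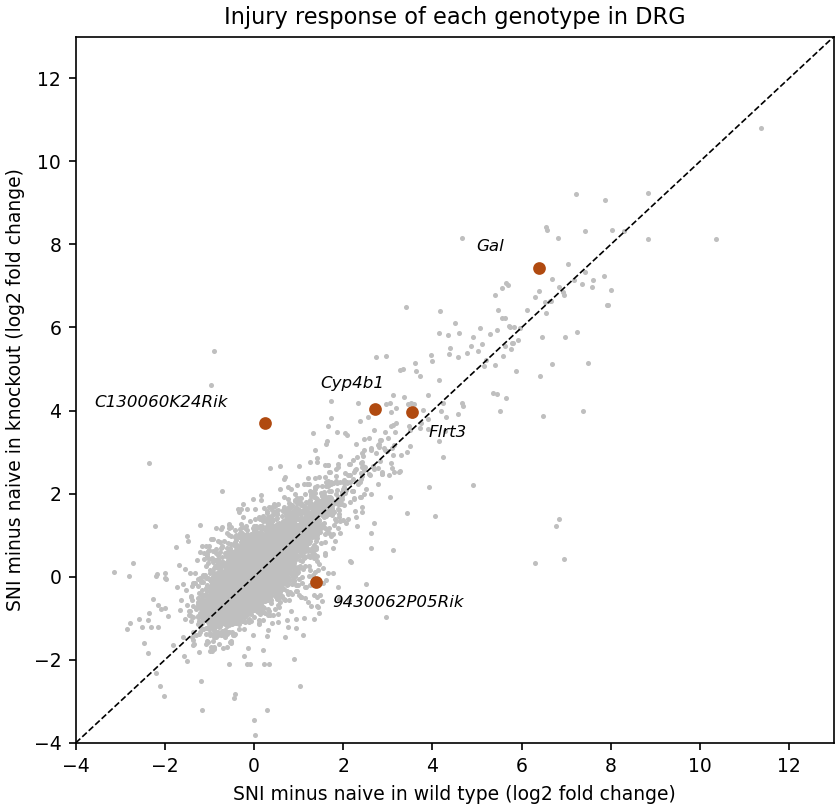
Log2 fold change from naive to SNI in wild type (x axis) and in knockout (y axis) for each gene tested in DRG (grey), with the 5 genes called for the interaction in orange and a dashed line of equal response. Gal, Cyp4b1, C130060K24Rik and Flrt3 lie above the line and 9430062P05Rik below it. 10 genes fall outside the axes.

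Gal, the gene of galanin, gave the lowest p (ENSMUSG00000024907, 19:3409915-3414544, minus strand). Naive wild-type libraries held 14, 12.9, 15.3, 12.7 and 11.6 CPM and naive knockout libraries 9.69, 11.5, 9.49, 10.8 and 10.5 CPM. After SNI the wild-type libraries held 1120.5, 1031.4, 1232.4 and 1053.2 CPM and the knockout libraries 1861.3, 1693.2, 1817.4 and 1786.0 CPM. The order of the genotypes was therefore opposite before and after injury, and neither pair of groups overlapped. Gal was lower in naive knockout by 0.36 ± 0.08 on the log2 scale (genotype difference -0.36, adjusted p = 0.00545) and higher in injured knockout by 0.69 ± 0.08 (adjusted p = 2.15e-05). The rise was 6.38 ± 0.09 in wild type and 7.43 ± 0.10 in knockout, a difference of 1.05 ± 0.11 (95% interval 0.81 to 1.28, adjusted p = 0.000549), or 2.06-fold. Of the genes of galanin's receptors, Galr1 and Galr2 had enough counts to be tested. Galr1 averaged 3.26 and 2.1 CPM in naive and injured wild type and 4.13 and 2.39 CPM in knockout, and its interaction was -0.16 ± 0.46 (95% interval -1.13 to 0.8). Galr2 averaged 1.11 and 0.701 CPM in wild type and 1.08 and 1.07 CPM in knockout (0.62 ± 0.52, 95% interval -0.48 to 1.72). Intervals this wide leave room for a 2-fold difference in either receptor.

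Cyp4b1, which encodes a cytochrome P450 enzyme that oxidizes fatty acids and foreign compounds, differed at the injured end (ENSMUSG00000028713, 4:115624725-115647723, minus strand). Naive libraries held 1.98, 1.96, 1.57, 1.59 and 1.78 CPM in wild type and 0.952, 1.78, 1.4, 1.33 and 1.66 CPM in knockout, and the groups overlapped. After SNI they held 13.6, 10.7, 10.4 and 11.7 CPM in wild type and 23.5, 23.7, 25.2 and 20.8 CPM in knockout, with every knockout library above every wild-type library. The genotype difference was -0.32 ± 0.15 in naive (adjusted p = 0.104) and 1.01 ± 0.12 after injury (adjusted p = 2.69e-05), and the interaction 1.33 ± 0.19 (95% interval 0.93 to 1.72, adjusted p = 0.0128). Of 10 tested genes of P450 family 4, Cyp4b1 was the member called. The next lowest p was that of Cyp4f15, which took the opposite sign (-0.46 ± 0.20, unadjusted p = 0.0334), and the median of the family was 0.02, the same as the 0.02 of all genes tested.

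The promoters of Gal and Cyp4b1 are shown because these genes had the lowest p-values and no overlap between genotypes after injury. The windows hold the 250 bases before the RefSeq start on GRCm38.p6, 19:3414545-3414794 for Gal and 4:115647722-115647971 for Cyp4b1, both read 5′ to 3′ on the minus strand. Capitals mark motif matches.
Gal: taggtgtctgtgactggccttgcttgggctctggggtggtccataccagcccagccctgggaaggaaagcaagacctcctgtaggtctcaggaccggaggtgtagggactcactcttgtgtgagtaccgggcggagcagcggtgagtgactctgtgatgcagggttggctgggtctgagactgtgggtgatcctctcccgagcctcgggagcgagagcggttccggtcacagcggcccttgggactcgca
Cyp4b1: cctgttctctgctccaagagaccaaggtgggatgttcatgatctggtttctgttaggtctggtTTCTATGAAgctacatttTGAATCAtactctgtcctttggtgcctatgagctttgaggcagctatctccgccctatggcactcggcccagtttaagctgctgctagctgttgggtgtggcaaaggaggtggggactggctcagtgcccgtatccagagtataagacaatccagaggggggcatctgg
On both strands, 5 motifs were searched, AP-1 (TGANTCA), CRE (TGACGTCA), CEBP-ATF (TGATGNAA), STAT (TTCNNNGAA) and E-box (CACGTG). The Cyp4b1 window held an AP-1 and a STAT match, and the Gal window held none of the 5. Of the full windows of 32851 promoters, which run to 50 bases after the start, 7.81% held an AP-1 match and 8.3% a STAT match. Counted by gene, 2425 of 27025 genes had an AP-1 match and 2582 a STAT match. Among 16 matched genes called by DESeq2, 2 had an AP-1 match (Cyp4b1 and Tmem88b) and 4 a STAT match (Cyp2j12, Cyp4b1, Epha3 and Gm45351). Among 20 matched genes of the axon injury list, 3 had an AP-1 match and 2 a STAT match. A match describes letters in the window only.

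**Figure D2:**
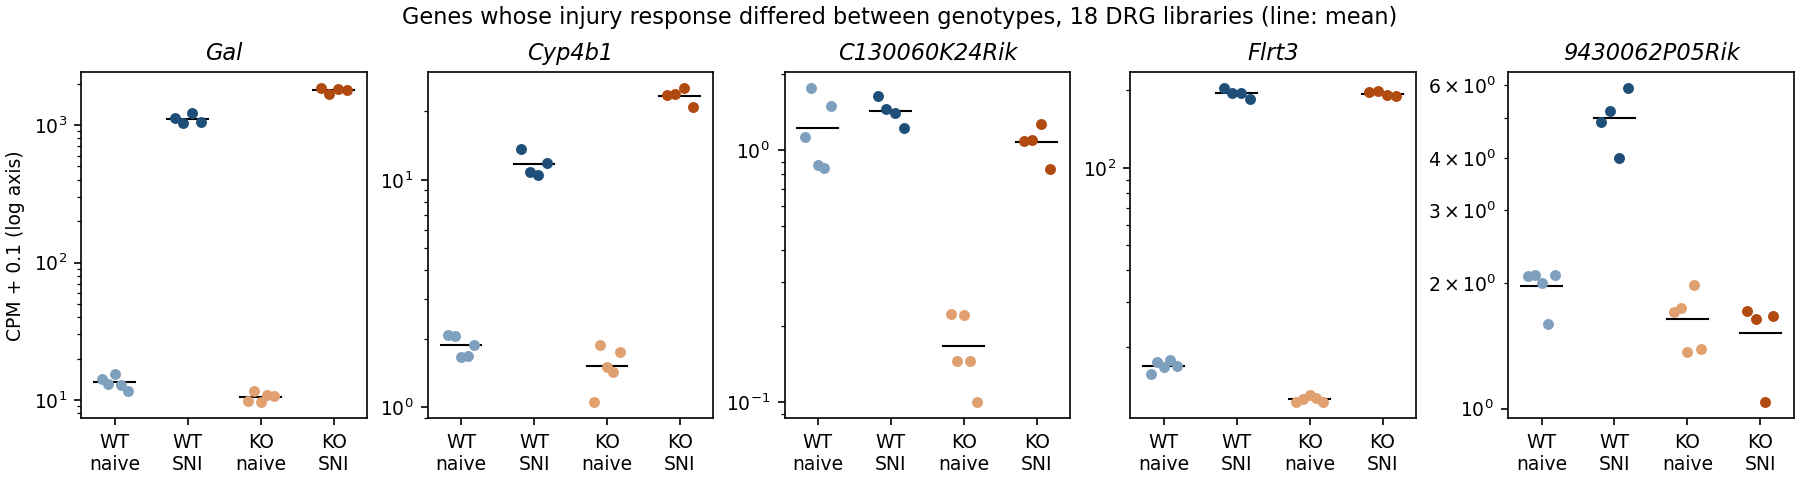
CPM (plus 0.1, log axis) of the 5 genes called for the interaction in each of the 18 DRG libraries, with a line at each group mean. Gal is lower in naive knockout and higher in injured knockout, Cyp4b1 differs after injury, C130060K24Rik and Flrt3 differ in naive ganglia, and 9430062P05Rik goes from a mean of 1.87 to 4.89 CPM in wild type and from 1.54 to 1.42 CPM in knockout.

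Flrt3, a fibronectin leucine-rich repeat membrane protein that guides axons through Unc5 receptors and latrophilins, differed at the naive end (ENSMUSG00000051379, 2:140650914-140671469, minus strand). Naive libraries held 15.6, 17.4, 16.6, 17.7 and 16.8 CPM in wild type and 12.1, 12.5, 12.9, 12.6 and 12.1 CPM in knockout, without overlap. After SNI they held 204.4, 196.0, 195.7 and 184.5 CPM in wild type and 196.6, 198.7, 191.3 and 190.3 CPM in knockout, with full overlap. The genotype difference went from -0.44 ± 0.05 in naive (adjusted p = 6.63e-06) to -0.01 ± 0.05 after injury (adjusted p = 0.953), which gave an interaction of 0.43 ± 0.07 (95% interval 0.29 to 0.57, adjusted p = 0.0255). Of the 17 genes of Flrt proteins, their partners and other guidance cues and receptors, Flrt3 was the member called. Flrt2 had the next lowest p with the same sign (0.34 ± 0.13, unadjusted p = 0.0149), and the median was -0.03. All 17 had a 95% interval inside ± 1, beside 15296 of the 19496 genes tested.

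C130060K24Rik, a protein coding gene with no assigned role (6:65381105-65458150, plus strand), was nearly silent in naive knockout. Naive libraries held 1.03, 1.66, 0.768, 0.75 and 1.39 CPM in wild type and 0.124, 0.0457, 0.123, 0.0459 and 0.0 CPM in knockout, the latter from 8 reads in all. After SNI the levels were 1.53, 1.35, 1.3 and 1.12 CPM in wild type and 0.981, 0.995, 1.17 and 0.739 CPM in knockout, so that the groups overlapped. Injury changed it in knockout (3.69 ± 0.41, adjusted p = 1.66e-06) and was not called in wild type (0.24 ± 0.26, adjusted p = 0.579). The interaction was 3.46 ± 0.50 (95% interval 2.4 to 4.52, adjusted p = 0.0128), and the naive genotype difference was -3.90 ± 0.39.

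9430062P05Rik, a transcript of unknown coding status (9:90156460-90159804, minus strand), was the gene called lower. Naive libraries held 1.98, 2.0, 1.9, 1.5 and 1.99 CPM in wild type and 1.61, 1.65, 1.27, 1.88 and 1.29 CPM in knockout. Injured libraries held 4.8, 5.08, 3.9 and 5.8 CPM in wild type and 1.62, 1.54, 0.935 and 1.57 CPM in knockout. The naive groups overlapped, and every injured wild-type library lay above every other library. It rose in wild type (1.38 ± 0.16, adjusted p = 2.91e-06) and was not called in knockout (-0.12 ± 0.18, adjusted p = 0.679), an interaction of -1.50 ± 0.24 (95% interval -2.0 to -0.99, adjusted p = 0.0279).

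Single libraries decided part of this set of 5. Without F2 the count fell to 1, Gal, and the adjusted p of Cyp4b1, C130060K24Rik, Flrt3 and 9430062P05Rik moved to 0.0507, 0.0507, 0.0589 and 0.0578. Without A4 it was 2, Gal and Cyp4b1, and without any 1 of A2, A3, E2, E4 or F4 it was 3. With the blood score as a covariate Gal alone was called (1.12, adjusted p = 0.000735), and the other 4 had an adjusted p of 0.0646 with values of 1.26, 3.22, 0.46 and -1.56. The part of blood in these differences was not tested beyond that fit.

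In the spinal cord fit 4 of these 5 genes had enough counts. Gal had 0.54 ± 0.24 there (unadjusted p = 0.0423), 9430062P05Rik -1.26 ± 0.59 (unadjusted p = 0.0434), C130060K24Rik -0.13 ± 0.29 and Flrt3 0.06 ± 0.09. None was called in cord, and the difference between tissues was not tested.

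None of the other 19 genes of the DESeq2 test passed in edgeR (adjusted p 0.0627 to 0.766). Cr2, the complement receptor 2 gene, was nearest. Its naive libraries held 0.904, 0.916, 1.06, 0.883 and 1.25 CPM in wild type and 0.538, 0.777, 0.493, 1.1 and 0.832 CPM in knockout, and its injured libraries 2.44, 3.13, 2.56 and 2.62 CPM in wild type and 5.5, 5.29, 4.95 and 5.87 CPM in knockout. The naive groups overlapped and the injured groups did not (interaction 1.44 ± 0.25, edgeR adjusted p = 0.0627, DESeq2 adjusted p = 0.000649). Plin2, a coat protein of lipid droplets, and Camk1, a calcium and calmodulin dependent kinase, had the same layout at higher levels. Plin2 averaged 41.3 ± 3.91 and 39.2 ± 1.1 CPM in naive wild type and knockout and 140.0 ± 5.56 and 187.6 ± 12.4 CPM after injury (0.50 ± 0.09, DESeq2 adjusted p = 0.000469). Camk1 averaged 45.1 ± 2.57 and 41.5 ± 1.65 CPM in naive and 134.3 ± 10.7 and 168.9 ± 5.01 CPM after injury (0.45 ± 0.08, DESeq2 adjusted p = 0.000202).

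Among these 19 were genes that rose with injury in both genotypes. Chl1, a neural adhesion molecule of the L1 family, averaged 159.0 ± 11.7 and 129.7 ± 13.4 CPM in naive wild type and knockout and 525.4 ± 22.6 and 606.6 ± 22 CPM after injury (0.50 ± 0.10). Mmp16, a membrane-bound metalloproteinase, went from 9.21 ± 0.701 to 56.3 ± 2.18 CPM in wild type and from 7.21 ± 0.46 to 62.2 ± 3.39 CPM in knockout (0.50 ± 0.09). Epha3, an ephrin receptor, went from 4.28 ± 0.6 to 8.53 ± 1.12 CPM in wild type and from 3.12 ± 0.221 to 10.6 ± 0.802 CPM in knockout (0.77 ± 0.16). Lmo7, which binds actin at cell junctions, had 0.71 ± 0.15. The genotype difference of these 4 genes was called in naive ganglia and not after injury. The calcium-regulated phosphatase gene Ppef1 was lower in every knockout library than in every wild-type library at both ends, more so in naive (80.8 ± 4.95 against 104.2 ± 4.66 CPM) than after injury (207.4 ± 3.68 against 221.4 ± 6.32 CPM), with an interaction of 0.27 ± 0.07. Pkd2l1, a polycystin channel gene, rested on few reads in naive knockout (10 in all, 0.0883 ± 0.0638 CPM) against 0.425 ± 0.232 CPM in naive wild type, and reached 2.8 ± 0.492 and 3.62 ± 0.521 CPM after injury in wild type and knockout (2.55 ± 0.54).

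A further set did not rise with injury in wild type. Cpne3, a copine that binds phospholipid in response to calcium, fell from 357.3 ± 23.5 to 225.0 ± 6.48 CPM in wild type and from 251.4 ± 23.7 to 217.4 ± 18.4 CPM in knockout (0.46 ± 0.10). Cyp2j12, another P450 gene, fell from 13.5 ± 0.728 to 7.83 ± 1.06 CPM in wild-type ganglia (adjusted p = 5.14e-06) and was not called in knockout (11.1 ± 1.11 to 9.86 ± 0.853 CPM, adjusted p = 0.202). Its knockout libraries lay below wild type in naive and above it after injury, without overlap at either end (0.62 ± 0.13, DESeq2 adjusted p = 0.0229). Spata7, a gene of the photoreceptor cilium, was higher in knockout at both ends, 21 ± 1.19 against 17.2 ± 1.05 CPM in naive and 25.1 ± 1.1 against 14.8 ± 1.32 CPM after injury (0.48 ± 0.10). With injury it fell in wild type (-0.22 ± 0.07, adjusted p = 0.0241) and rose in knockout (0.26 ± 0.07, adjusted p = 0.0063). Cd24a, a surface glycoprotein gene, had 0.34 ± 0.08 from a lower naive level in knockout, 861.9 ± 66.7 against 1041.4 ± 40.4 CPM. It rose with injury in knockout (0.33 ± 0.06, adjusted p = 0.000306) and was not called in wild type (-0.01 ± 0.06, adjusted p = 0.91).

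Downward differences beside 9430062P05Rik were those of Gng4, Tmem88b and Gm20628. Gng4, a G protein gamma subunit, rose in wild type from 3.53 ± 0.423 to 6.14 ± 1.88 CPM and was not called in knockout, 4.29 ± 0.543 to 3.3 ± 0.406 CPM (-1.18 ± 0.24, DESeq2 adjusted p = 0.00794). Its injured wild-type libraries spread widely, with E1 and F1 at 7.53 and 7.97 CPM and E3 and F3 at 4.86 and 4.21 CPM, all above the injured knockout libraries. Tmem88b rose in both genotypes, to 12.4 ± 1.37 CPM in wild type and 8.17 ± 1.22 CPM in knockout from 5.09 ± 0.24 and 5.38 ± 0.617 CPM (-0.69 ± 0.15). Gm20628, annotated antisense on chromosome 3, reached 4.66 ± 0.509 CPM in injured wild type and 1.69 ± 0.125 CPM in injured knockout (-1.09 ± 0.23). Whether the counting used strand was not given, so its reads cannot be told apart from those of the gene it overlaps.

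The remaining 3 were predicted genes. The pseudogene Gm45351 averaged 4.19 ± 0.681 and 0.509 ± 0.216 CPM in naive wild type and knockout and 4.1 ± 1.2 and 1.9 ± 0.7 CPM after injury, and its reads may be shared with a parent gene. Gm13625 had 0 reads in all 4 injured wild-type libraries against 48 reads in injured knockout, 82 in naive wild type and 89 in naive knockout, so its fitted fold is not given. Gm21541 had reads in A3, B3, E2, E4 and F4 and none in the other 13 libraries. It was thus present in part of the naive wild-type and injured knockout libraries.

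**Figure D3:**
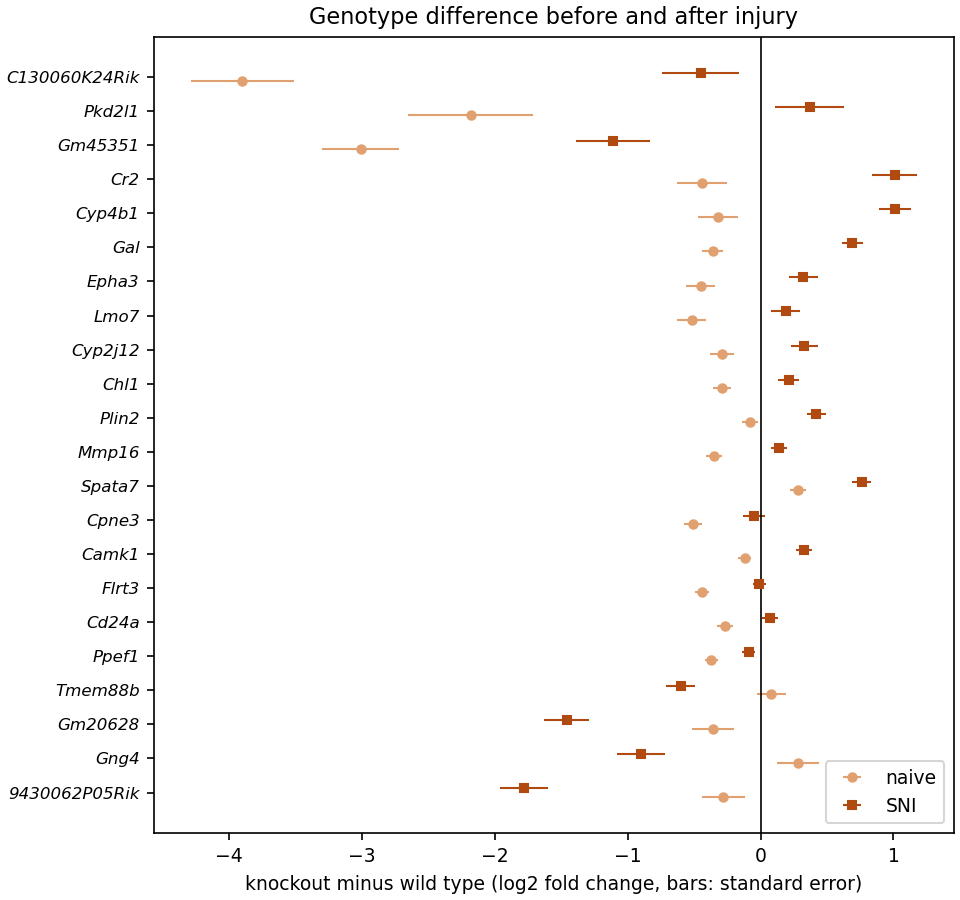
Knockout minus wild-type log2 fold change in naive (circles) and injured ganglia (squares), with standard errors, for 22 of the 24 genes called by edgeR or DESeq2 (Gm13625 and Gm21541 left out, since groups at 0 reads give no fold). From the top down to Ppef1 the injured value lies right of the naive value, and for the lowest 4 genes it lies left.

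Across these 24 genes the genotype difference was called in naive ganglia for 14 and in injured ganglia for 12, with 3 in both and 1 in neither. Over all genes the genotype difference was called for 28.2% in naive and 5.1% in injured ganglia. Since these comparisons share their libraries with the interaction, the counts only show at which end each gene differed. Libraries did not overlap between genotypes for 11 of the 24 in naive and for 16 after injury. The share over all genes was not counted, and the 24 genes were chosen on these same libraries. The means of 13 genes were lower in naive knockout and higher in injured knockout than in wild type, as for Gal. That share was not counted over all genes either, and choosing genes by a positive interaction favors this order. The injury itself was called in wild type for 20 and in knockout for 18, where 24.9% and 28.5% of all genes were.

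Predicted genes such as 9430062P05Rik aside, 12 genes averaging at least 1 in log2 CPM were taken by the lowest p for a lower response in knockout, and edgeR called none of these 12. With injury in knockout 6 of them fell, 3 rose (Tmem88b, Stmn4 and Chac1) and 3 were not called (Gng4, Coil and Cap2). Over all genes 13.3% fell and 15.1% rose in knockout. Since the 12 were chosen on these same libraries for a lower response in knockout, falls there are favored by the choice. Coil, the scaffold of Cajal bodies, held 15.4, 15.7, 18.5 and 17.0 CPM in injured wild type and 10.9, 11, 11.3 and 10.9 CPM in injured knockout, without overlap (interaction -0.46 ± 0.11, adjusted p = 0.346). Ibsp, a bone matrix protein, averaged 4.12 ± 0.859 and 3.37 ± 0.259 CPM in naive and injured wild type and 6.13 ± 0.761 and 2.94 ± 0.137 CPM in knockout (-0.78 ± 0.20). Cap2, an actin regulator, had -0.65 ± 0.16 and the sodium-calcium exchanger gene Slc24a3 -0.44 ± 0.12, both with every naive knockout library above every naive wild-type library. The citron kinase gene Cit (-0.43 ± 0.12), Pgrmc2, a membrane heme-binding protein (-0.36 ± 0.10), and the TGF-beta binding protein Ltbp3 (-0.23 ± 0.07) shared that naive layout and overlapped after injury. The iodide transporter gene Slc5a5 had -0.38 ± 0.10, with overlap in naive and lower knockout levels after injury.

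For most of the axon injury program, as for most genes tested, the data bound the difference below 2-fold. Over all genes, 12.6% were called higher and 12.3% lower with SNI in wild type, and 15.1% and 13.3% in knockout. Of the 25 genes of the program, 20 rose and 1 fell with SNI in each genotype, while the interaction was called for 1, Flrt3, and the median interaction was 0.00, beside 0.02 over all genes. Of the 25, 20 had a 95% interval inside ± 1, that is, less than a 2-fold difference. Over all genes tested, 15296 of 19496 had such an interval. List scores were 4.32 to 4.5 in naive and 6.52 to 6.9 in injured wild type, and 4.46 to 4.56 and 6.73 to 6.96 in knockout, overlapping between genotypes at both ends. Stmn4, a stathmin that destabilizes microtubules, had the second lowest p in the list, with a rise of 3.10 ± 0.09 in wild type and 2.62 ± 0.09 in knockout (-0.48 ± 0.12, adjusted p = 0.42). Atf3, the stress transcription factor that marks cut neurons, named here after its values were seen, had -0.23 ± 0.15 (95% interval -0.54 to 0.07).

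Among the genes with the largest rises, standard errors of the interaction ran from 0.38 (Ecel1) to 1.15 (Crh), against a median of 0.171 over all genes. Sprr1a, a small proline-rich protein of regenerating axons, had -0.55 ± 0.54 (95% interval -1.69 to 0.59) and Anxa10, an annexin, -0.71 ± 0.68 (-2.15 to 0.73). The lipase gene Lipn had 1.18 ± 0.86 (-0.62 to 2.98) and Ecel1, an endopeptidase induced in injured neurons, -1.09 ± 0.38 (-1.9 to -0.28, adjusted p = 0.783). After injury itself, the genotype differences were 0.25, 0.48, 0.43 and -0.02 in this order, none called. Every injured knockout library of Anxa10 (17 to 20.4 CPM) and Lipn (14.3 to 19.5 CPM) lay above every injured wild-type library. Those held 12 to 15.4 CPM for Anxa10 and 11.1 to 13.8 CPM for Lipn, while Sprr1a and Ecel1 overlapped. Naive wild type and knockout had 3 and 7 reads in all for Anxa10, and 6 and 3 for Lipn.

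**Figure D4:**
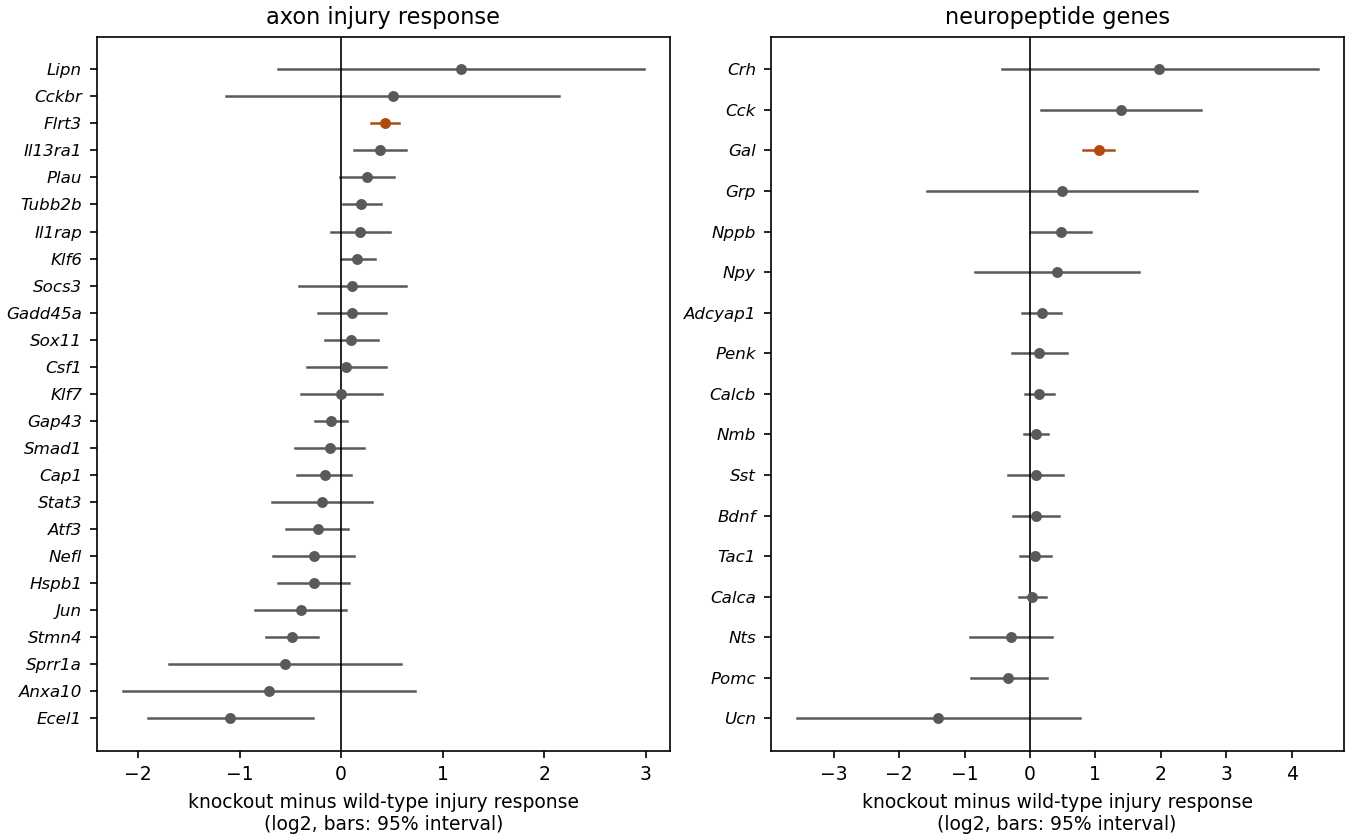
Interaction (knockout minus wild-type injury response, log2) with its 95% interval for 25 axon injury genes (left) and 17 neuropeptide genes (right). Flrt3 and Gal, in orange, are the genes called. Intervals are widest for genes near 0 in naive ganglia, such as Lipn, Crh and Ucn.

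Among neuropeptide genes Gal was the member called of 17 tested, and the list's median interaction was 0.14 with 14 members above 0, against 54.4% of all genes above 0. Cck, the cholecystokinin gene, rose in knockout (2.16 ± 0.42, adjusted p = 0.000691) and was not called in wild type (0.77 ± 0.39, adjusted p = 0.172), and its interaction of 1.39 ± 0.58 did not pass (unadjusted p = 0.0282, adjusted p = 0.835). Crh, of corticotropin releasing hormone, rose by 7.22 ± 0.39 in wild type and 9.21 ± 0.45 in knockout, with an interaction of 1.98 ± 1.15 (95% interval -0.43 to 4.4). Npy, of neuropeptide Y, had 0.41 ± 0.60 (-0.84 to 1.67).

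Of 19 nociceptor genes 11 fell and 2 rose with injury in each genotype (over all genes 12.3% fell and 12.6% rose in wild type, 13.3% and 15.1% in knockout), and none was called for the interaction (median 0.01, with 18 of 19 intervals inside ± 1). Trpa1, the irritant channel, fell by 0.76 ± 0.08 in wild type (-0.76) and 0.40 ± 0.08 in knockout (-0.40), an interaction of 0.36 ± 0.12 (unadjusted p = 0.00553, adjusted p = 0.669). Scn9a, the sodium channel Nav1.7, had 0.33 ± 0.11 (adjusted p = 0.766). In naive ganglia 4 nociceptor genes were called higher and 4 lower in knockout (median genotype difference 0.20), where 12.8% of all genes were called higher and 15.4% lower. Trpa1 and Scn9a were among the 4 lower, -0.50 for Trpa1 (adjusted p = 0.000239) and -0.24 for Scn9a (adjusted p = 0.0303), and neither genotype difference was called after injury. Of 20 potassium channel genes none was called for the interaction (median -0.07), with the lowest p at Kcnb2 (0.21 ± 0.10, unadjusted p = 0.0373, adjusted p = 0.835). Among 7 opioid genes (median 0.04, none called) the lowest p was that of the mu opioid receptor gene Oprm1. It fell in wild type (-0.85 ± 0.15, adjusted p = 0.000379) and was not called in knockout (-0.19 ± 0.16, adjusted p = 0.407), with an interaction of 0.66 ± 0.22 (unadjusted p = 0.00692, adjusted p = 0.702). Oprm1 differed at the naive end, 14.3 CPM in wild type and 8.79 CPM in knockout without overlap (genotype difference -0.7, adjusted p = 0.00274). After injury it averaged 7.91 and 7.71 CPM (-0.04, adjusted p = 0.919). Touch and proprioceptor neuron genes had a median of -0.17 and none called. At an unadjusted p under 0.05, 3 of 15 were below 0 and 1 above it, where 1.87% and 4.08% of all genes were. In naive ganglia 8 of these 15 genes were called higher and 3 lower in knockout, where 12.8% and 15.4% of all genes were. Their lowest p-values were those of the transcription factor genes Runx3 (-0.54 ± 0.23) and Mafa (-0.72 ± 0.32). General neuronal genes had a median of -0.13, with 2 of 12 above 0, against 54.4% of all genes, and none called.

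Genes of the unfolded protein and integrated stress responses, which act when the endoplasmic reticulum is overloaded, rose for 14 of 23 in wild type and 13 of 23 in knockout, where 12.6% and 15.1% of all genes rose. None was called for the interaction and 5 of 23 lay above 0 (median -0.06), against 54.4% of all genes. Chac1, a target of the stress factor Atf4 that breaks down glutathione, had the lowest p. Its libraries held 2.19, 2.0, 3.11, 3.62 and 1.89 CPM in naive wild type, 3.85, 3.2, 3.99, 3.35 and 4.34 CPM in naive knockout, 14.6, 14.5, 14.7 and 11.4 CPM in injured wild type and 12.3, 12.1, 10.8 and 8.78 CPM in injured knockout. The genotypes overlapped at both ends. Chac1 was called higher in naive knockout (0.55 ± 0.17, adjusted p = 0.0233), and its genotype difference was not called after injury (-0.32 ± 0.16, adjusted p = 0.252). The rise was 2.43 ± 0.17 in wild type and 1.55 ± 0.16 in knockout (-0.88 ± 0.23, unadjusted p = 0.00142, adjusted p = 0.475). Herpud1, of the protein degradation machinery of the endoplasmic reticulum, followed with -0.18 ± 0.08. All 14 cholesterol synthesis genes and all 19 respiratory chain genes had a 95% interval inside ± 1, with medians of 0.00 and -0.01.

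Macrophage genes rose with injury in every member in each genotype, 20 of 20, where 12.6% of all genes rose in wild type and 15.1% in knockout. The interaction was called for none. The median was 0.28 with 19 of 20 above 0, against 54.4% of all genes. An interval inside ± 1 was had by 11 of 20, against 15296 of the 19496 genes tested. Scores were 3.49 to 4.27 in naive and 4.73 to 5.52 in injured wild type, and 2.96 to 3.61 and 4.62 to 4.99 in knockout, so knockout libraries sat lower at both ends with some overlap. Msr1, a scavenger receptor, had the lowest p (0.51 ± 0.29, unadjusted p = 0.0919), followed by the lysosomal marker Cd68 (0.40 ± 0.26). In bulk tissue, fewer cells of a type and less RNA per cell cannot be told apart. Among 17 chemokine, cytokine and receptor genes, none was called (median 0.11), and the 2 lowest p-values had negative signs. Cxcl10 had -0.79 ± 0.41 and Ccl8, a monocyte attractant, -1.75 ± 0.94 (95% interval -3.74 to 0.24). Interferon response genes had a median of -0.19 with 1 of 14 above 0 and none called, led by Irf7 (-0.55 ± 0.30) and Mx1 (-0.67 ± 0.38).

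**Figure D5:**
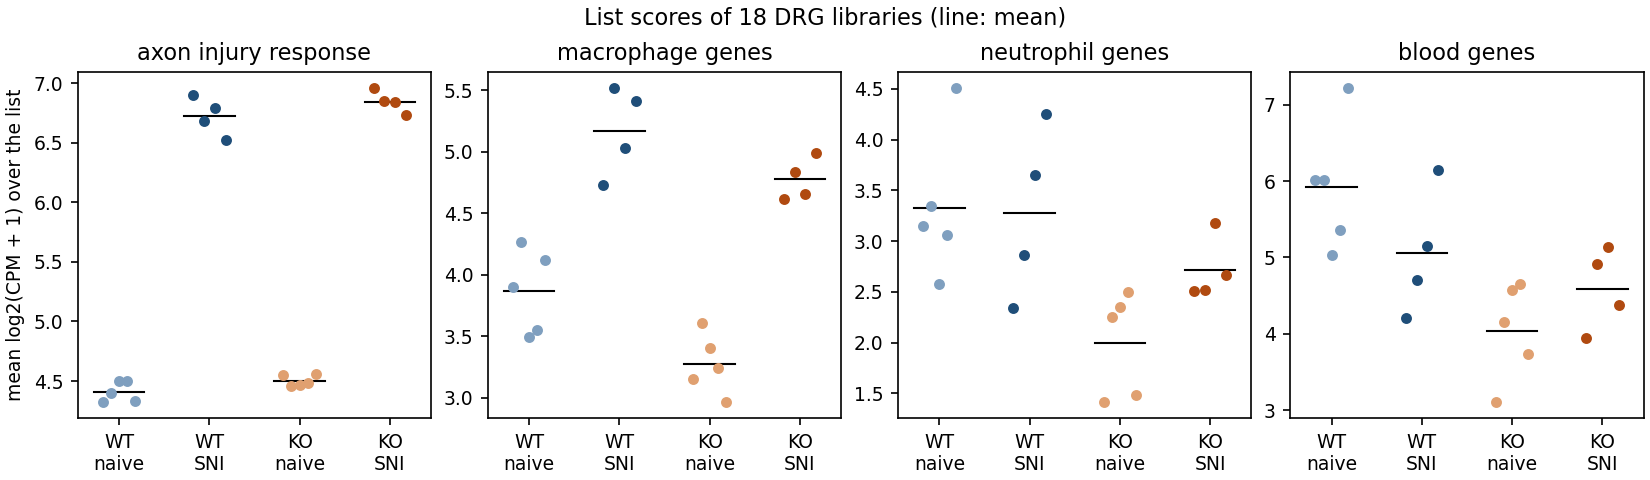
List score (mean log2(CPM + 1) of the members) of axon injury, macrophage, neutrophil and blood genes in each of the 18 DRG libraries, with a line at each group mean. Axon injury scores of the genotypes overlap before and after injury. Blood and neutrophil scores are lowest in naive knockout, with means of 4.04 and 2.

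Neutrophil and blood genes had, with muscle genes, the largest positive medians of the lists and no member called. The neutrophil median was 0.96 with 12 of 12 above 0. That of blood genes was 1.53 with 7 of 7 above 0, of which 4 had an unadjusted p under 0.05. Of all genes, 54.4% lay above 0 and 5.95% had such a p. Ly6g, a surface marker of neutrophils, had 2.49 ± 0.72 (unadjusted p = 0.00275, adjusted p = 0.632), and Hba-a2, an alpha globin gene whose reads may be split with its near-identical copy Hba-a1, 1.82 ± 0.72 (unadjusted p = 0.0221). In naive ganglia 11 of 12 neutrophil and 7 of 7 blood genes were called lower in knockout, where 15.4% of all genes were, and after injury none of either list, against 2.71% of all genes. Neutrophil scores were 2.58 to 4.51 and 2.34 to 4.25 in naive and injured wild type and 1.41 to 2.5 and 2.51 to 3.18 in knockout. The cell cycle list (median 0.49, 10 of 10 above 0) was led by Mki67 (1.14 ± 0.50) and Top2a (0.95 ± 0.45), with 8 of 10 lower in naive knockout. With the blood score in the fit, the medians moved from 0.96 to -0.47 for neutrophil and 0.28 to -0.11 for macrophage genes. They moved from 0.49 to -0.06 for cell cycle, 0.11 to -0.18 for chemokine and -0.19 to -0.25 for interferon response genes. Others rose, such as skeletal muscle from 1.49 to 2.77, general neuronal from -0.13 to 0.08 and axon injury genes from 0 to 0.15. Skeletal muscle genes had a median of 1.49, with scores of 0.46 to 3.51 in naive wild type, where A3 and B1 were highest, and 0.29 to 2.32 elsewhere.

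Of the remaining lists, B cell genes had the highest median, 0.37 with 6 of 7 above 0, which moved to -0.33 with the blood score in the fit. The other medians were 0.05 for 12 Schwann cell genes, -0.12 for 11 satellite glia genes, 0.14 for 9 endothelial genes, 0.11 for 12 fibroblast and matrix genes, 0.02 for 10 immediate early genes, 0.19 for 10 antigen presentation genes, 0.19 for 5 T cell and NK genes and -0.10 for 3 spinal cord and oligodendrocyte genes. They compare with 0.02 over all genes, and no member of these lists was called.

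A difference of differences is less precise than either of its terms. The median standard error was 0.171 for the interaction and 0.121 for the injury effect in each genotype. Among the 14933 genes that averaged at least 1 on the log2 CPM scale, 93.9% had a 95% interval inside ± 1, so a 2-fold difference in response fell outside their interval. That held for 4189 (86.1%) of the genes called for injury in wild type, and for 324 (46.6%) of the 695 that rose more than 2-fold there. The smallest difference called was 0.43, that of Flrt3.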

How the data were processed

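RNA of DRG and dorsal spinal cord was sequenced in 36 libraries, made with a stranded mRNA kit per the labels' protocols, and the 18 DRG libraries are described. FastQC 0.11.5, HISAT2, RSEM and build GRCm38 are named in the submitters' processing notes. Roles, other versions and the annotation are not given in the sources used here. Expected counts, reads per gene as estimated, fill the main table deposited by the authors for 55487 genes and were rounded to whole numbers. In the deposited table the column of E1 was recorded as unit other, since 9150 cells had decimal commas, read here as points, and 1 lost cell was restored as 1780.86. The authors' normalised table holds signal values for 52999 genes, used in that repair and in 1 alternative. Names and places came from GENCODE M21 (55227 genes), promoters from RefSeq on GRCm38.p6.

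All 18 DRG libraries in 4 groups were fitted with edgeR 4.0.16 in R 4.3.3 (TMM, filterByExpr, robust quasi-likelihood F tests, 14 residual degrees of freedom, 19496 genes tested). DESeq2 1.42.0, limma 3.58.1, other scalings and filters, left-out libraries, blocks and covariates were alternatives. Standard errors are the log2 value divided by the square root of F. Named genes were those called, the 12 lowest p per direction and the 6 largest rises among genes averaging at least 1 in log2 CPM, predicted genes (Gm, Rik and the like) left out, and the 2 lowest p per list. The script was tested on simulated data. Members, 31 gene lists and rules were chosen with earlier results of these data known. No value rests on a list test. Pairs of libraries of 1 group differed by a chi-square per gene of 4.07 to 57.32, where 1 is sampling noise. Some genes and 2 of the lists are not reported here.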

Additional observations from a re-analysis of the deposited data

Results flagged for a closer look

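The 5 genes called for the interaction are those whose injury response differed between genotypes by the test of the difference itself, at 1.05 for Gal, 1.33 for Cyp4b1, 3.46 for C130060K24Rik, 0.43 for Flrt3 and -1.5 for 9430062P05Rik on the log2 scale. Among 120 groups of 4 or 5 libraries searched for a library far from the rest, over 26 genes and 4 list scores, 11 had one. Groups of Gm13625 and Gm21541 without reads in any library had no spread and could not be tested. Chance flags about 1 in 20 groups tested.

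9430062P05Rik had B3 low in naive wild type (1.5 CPM, others 1.9 to 2.0) and F2 low in injured knockout (0.935 CPM, others 1.54 to 1.62). F2 was also apart in injured knockout for Cd24a (1121.1 CPM, others 1061.8 to 1070.4), Ppef1 (201.9 CPM, others 209.0 to 209.7) and Gm21541 (0.0 CPM, others 1.29 to 1.54). Camk1 had B1 high in naive wild type (49.6 CPM, others 43.5 to 44.8) and E2 high in injured knockout (176.4 CPM, others 166.0 to 167.2). Lmo7 had B3 low in naive wild type (7.85 CPM, others 11.9 to 13.4) and A2 low in naive knockout (6.42 CPM, others 8.08 to 8.71). Tmem88b had A3 low in naive wild type (4.66 CPM, others 5.15 to 5.25), and Chac1 had F3 low in injured wild type (11.4 CPM, others 14.5 to 14.7).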

How the results depend on the processing

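Over 33 alternatives Gal kept its sign in all and its call in 32 (0.97 to 1.12), Cyp4b1 its call in 30, Flrt3 in 16 and 9430062P05Rik in 15, and C130060K24Rik in 26 of 32, all with the same sign. Settings that moved the count of 5 genes (4 higher, 1 lower) by over 1.5 times were DESeq2 (24, 20 and 4), all 36 libraries in 1 fit (19, 14 and 5, with 2183 genes for genotype after injury), leaving out A2 and A4 together (2, 2 and 0, with 2626 genes for genotype in naive), the title letter as a block (3, with 0 lower), the blood score (1, 1 and 0, with 529 genes for genotype in naive) and the muscle score (0 lower). The cause was not tested. Leaving out 1 library gave 1 to 7 genes, 1 to 6 higher and 0 to 1 lower, 3032 to 6638 genes for genotype in naive and 615 to 1703 after injury.

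Wild-type and knockout columns share numbers that the labels do not carry. Of 9 pairs with the same number, 3 deviated together by a correlation over 0.1 (-0.22 to 0.43, other pairs -0.46 to 0.43). Best correlation was with the own number for 6 of 18 libraries. What the number stands for is not given, and these correlations cannot decide whether same-numbered libraries were paired. With the replicate block, added after seeing the data, edgeR called 0 genes (0 higher, 0 lower) with 1235 at an unadjusted p under 0.05, and Gal had an adjusted p of 0.0517 and the same 1.05. Intervals were wide for Lipn and Crh, which were near 0 in naive ganglia.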
